A study of Mus musculus with 2 samples.

Results

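Intronic distal sites in shorter genes are the stretches of open chromatin that lie inside protein-coding genes but away from their starts and exons. A site was counted where a DNase-seq peak of replicate 1 overlapped a peak of replicate 2 by at least 1 bp, on an autosome, inside a protein-coding gene shorter than 200 kb and in no gene of 200 kb or longer. It also had to lie more than 2500 bp from every protein-coding transcript start and to touch no protein-coding exon. Of 49472 autosomal peaks shared by both replicates, 6180 (12.5%) met this rule, which uses position only. The material was hippocampal tissue of male mice 2 months of age, labelled as an unspecified layer. The strain was B6CASTF1/J, a first-generation cross of a B6 and a CAST parent, and heights pool both parental alleles on 1 reference genome. The series held 1 group of 2 samples, numbered as biological replicates 1 and 2, with the same donor entry and no statement that they came from separate animals. No treatment, genotype or other tissue was present, so the comparisons below are between kinds of intron and between kinds of site within these samples, each given in both replicates.

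DNase I cuts DNA where nucleosomes have been displaced, and such sites away from gene starts are mostly enhancers, insulators and other binding places of transcription factors. A footprint is a short protected stretch inside an open site, left where a bound protein shields the DNA from the enzyme. First introns lie next to the promoter, tend to be long and are known to hold many regulatory elements, which is why they are compared here with the later introns of the same class of genes.

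Replicate 1 had 132685 peaks and 255536 footprints, and replicate 2 had 59880 and 111355. Peak heights are on the authors' signal scale, which the sources used here do not define. They were whole multiples of 0.00535 in replicate 1 and 0.0108 in replicate 2, so 1 step of height is smaller in replicate 1. Values are compared within a replicate, or between replicates only beside the same comparison in other sites. Values from 2 replicates allow no exact two-sided p below 0.5, so no p-values are given. Intervals are 95% Wilson intervals and cover counting error only. Promoters of the marker genes shorter than 200 kb, called open where a shared peak lay within 500 bp of a start, were open for 14 of 16 excitatory neuron genes and 10 of 12 pan-neuronal genes, against 56.6% of all such genes. Other neuronal lists were lower, at 9 of 17 for GABAergic interneuron, 4 of 9 for CA1 pyramidal, 5 of 8 for CA2 and CA3 pyramidal and 5 of 9 for dentate granule genes. Housekeeping genes were open in 13 of 13 and immediate-early genes in 19 of 19. The same count was 6 of 14 for astrocyte, 6 of 16 for oligodendrocyte, 3 of 16 for microglia, 5 of 18 for vascular, 0 of 18 for liver and 0 of 15 for muscle genes. In such bulk tissue, fewer cells of a type and less opening per cell cannot be told apart.

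The highest sites show what the data look like at the level of bases. From the 3 highest first-intron and the 3 highest later-intron sites, ranked by the mean log2 height over both replicates, 5 are printed whole on the plus strand of GRCm38 (mm10), 5′ to 3′, with capitals marking bases inside footprints of both replicates. The first-intron sites lie at chr17:47511221-47511420 in Ccnd3, a D-type cyclin, and at chr1:134120261-134120460 in Chit1, a chitinase. The later-intron sites lie at chr16:11144171-11144300 in Zc3h7a, a zinc finger protein, at chr13:44869561-44869700 in Jarid2, a component of Polycomb complexes, and at chr9:120011141-120011360 in Cx3cr1, the fractalkine receptor of microglia.
Ccnd3 intron 1: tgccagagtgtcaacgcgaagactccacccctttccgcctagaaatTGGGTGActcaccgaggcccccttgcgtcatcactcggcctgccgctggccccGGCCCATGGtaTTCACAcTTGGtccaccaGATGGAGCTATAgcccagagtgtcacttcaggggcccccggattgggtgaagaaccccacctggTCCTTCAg
Chit1 intron 1: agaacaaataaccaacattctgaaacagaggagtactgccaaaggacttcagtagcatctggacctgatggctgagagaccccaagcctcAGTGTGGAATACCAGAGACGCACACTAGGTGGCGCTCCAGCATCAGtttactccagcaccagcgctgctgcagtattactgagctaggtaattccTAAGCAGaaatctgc
Zc3h7a intron 19: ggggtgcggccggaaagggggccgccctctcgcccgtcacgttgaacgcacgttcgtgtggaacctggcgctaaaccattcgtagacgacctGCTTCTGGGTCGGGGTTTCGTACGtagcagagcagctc
Jarid2 intron 3: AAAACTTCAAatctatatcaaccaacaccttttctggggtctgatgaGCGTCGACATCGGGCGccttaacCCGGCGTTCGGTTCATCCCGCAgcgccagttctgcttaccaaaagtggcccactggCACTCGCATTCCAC
Cx3cr1 intron 2: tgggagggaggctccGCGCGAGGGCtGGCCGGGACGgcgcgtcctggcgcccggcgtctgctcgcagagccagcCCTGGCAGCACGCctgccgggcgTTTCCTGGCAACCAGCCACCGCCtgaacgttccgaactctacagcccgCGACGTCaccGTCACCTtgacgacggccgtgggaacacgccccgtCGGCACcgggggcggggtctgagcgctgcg

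The Ccnd3 site reached 7.60 in replicate 1 and 3.57 in replicate 2, and 45 of its 200 bases were inside footprints of both replicates, in several separate runs. Chit1 reached 6.80 and 3.55 with 53 protected bases, most of them in 1 continuous run.

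The 2 highest later-intron sites differ from these first-intron sites in sequence. Zc3h7a reached 18.4 in replicate 1 and 36.2 in replicate 2, the highest value of any site in each replicate, and it overlaps Gm23935, annotated as a miRNA gene. Each of its 107 runs of 24 bases also occurs elsewhere in the reference genome, up to 8 times in all. Copies were counted over all sequence records of the reference, not only chromosomes. A locus held in more than 1 record therefore counts more than once. Jarid2 reached 15.2 and 11.5, and 66 of its 117 runs of 24 bases occur elsewhere, up to 14 times. Both read like parts of 28S ribosomal RNA, from background knowledge, and this match was not tested. Reads of such repeated sequence can be placed at the wrong copy, and the part of this in the heights was not tested. Cx3cr1 reached 9.48 and 5.86 with 76 of 220 bases protected in both replicates, and none of its 24-base runs occurs elsewhere. This site has a GC content of 74.1% and overlaps the lincRNA gene Gm49427. The nearest protein-coding start is 7138 bp away.

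The next sites in height were Palm (7.54 and 3.13) and Hs6st1 (6.64 and 3.0) among first introns, and Vps37c (11.5 and 4.37) and Txnrd2 (9.47 and 4.65) among later introns. Palm encodes a membrane-bound protein of neurites and Hs6st1 a heparan sulfate sulfotransferase, while Vps37c belongs to the ESCRT machinery of endosomes and Txnrd2 is the mitochondrial thioredoxin reductase. Every 24-base run of the Txnrd2 site occurs 2 times in the reference, and whether these are separate loci was not tested. None of the runs in the Ccnd3, Chit1, Palm and Hs6st1 sites occurs more than 1 time. Over all sites, the middle 24 bases occurred once in the reference for 5878 of 6180 (95.1%), with 95.5% in first introns and 95% in later introns. Sites with repeated middle bases had median heights of 1.49 and 0.968, against 1.42 and 0.947 for the others.

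Known binding motifs appear in these sites as short exact matches, and 1 example of each of 4 motifs is printed to show where the match lies in the open stretch. Each is the highest site that holds the motif inside a footprint of both replicates, with footprints widened by 10 bp to each side. The 80 bases centred on the match are given 5′ to 3′ on the plus strand of GRCm38, with the central match in capitals. They are chr11:119991426-119991505 with AP-1, the Fos and Jun dimer, chr16:18229766-18229845 with the palindrome of the nuclear factor I (NFI) family, chr6:119348375-119348454 with MEF2, an activity-linked regulator of neurons and muscle, and chr1:180365290-180365369 with the X-box of the RFX family.
Baiap2 intron 6, AP-1: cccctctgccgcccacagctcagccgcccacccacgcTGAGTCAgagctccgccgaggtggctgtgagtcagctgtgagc
Zdhhc8 intron 1, NFI palindrome: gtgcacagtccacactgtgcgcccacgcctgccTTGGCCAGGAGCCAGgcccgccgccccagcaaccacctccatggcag
Cacna2d4 intron 35, MEF2: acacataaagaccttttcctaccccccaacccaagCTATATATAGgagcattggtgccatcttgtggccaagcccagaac
Itpkb intron 2, RFX X-box: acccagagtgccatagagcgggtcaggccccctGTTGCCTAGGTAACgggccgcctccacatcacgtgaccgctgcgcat

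Their heights in replicates 1 and 2 were 8.47 and 3.51 for Baiap2, 4.33 and 1.83 for Zdhhc8, 4.36 and 2.01 for Cacna2d4, and 4.63 and 3.21 for Itpkb. All 4 lie above the upper quartile of all sites, which is 2.45 in replicate 1 and 1.30 in replicate 2.

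First and later introns held nearly the same number of sites for their length. Introns were numbered in 1 representative transcript per gene. Density was counted over eligible intron sequence, meaning bases that meet the rule when each is judged alone. A site had to clear exons and starts over its whole width, so bases next to them count although no whole site can be centred there. Short introns hold more such bases for their length, and the part of this in the densities was not tested. First introns had 1381 sites in 103 Mb, or 13.4 sites per Mb, and later introns had 4335 sites in 321 Mb, or 13.5 sites per Mb. Another 451 sites lay in eligible sequence outside the introns of the representative transcript, at 17.0 per Mb, and 13 lay in a first intron of 1 gene and a later intron of another. The ratio of first to later density was 0.991 for shared sites. It was 1.10 in the list of replicate 1 alone, with 54.4 and 49.3 sites per Mb, and 1.05 in that of replicate 2 alone, with 16.4 and 15.5 per Mb. First introns had the higher density on 8 of 19 autosomes for shared sites, on 16 in replicate 1 and on 11 in replicate 2. The direction thus differed between the lists.

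Among shared sites, distance from the start did not separate the kinds of intron either. Within 2.5 to 10 kb of a protein-coding start, first introns had 13.5 sites per Mb and later introns 13.0. At 20 to 30 kb the values were 14.1 and 14.1. The largest gaps were at 40 to 60 kb, with 17.0 in first and 13.6 in later introns, and beyond 60 kb, with 10.9 and 13.8, where only 35 first-intron sites remained. Weighted over 6 distance ranges, the ratio was 1.01. In the list of replicate 1 alone, first introns were denser in all 6 ranges, with ratios of 1.07 to 1.30, and in that of replicate 2 alone in 5 of 6.

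**Figure D1:**
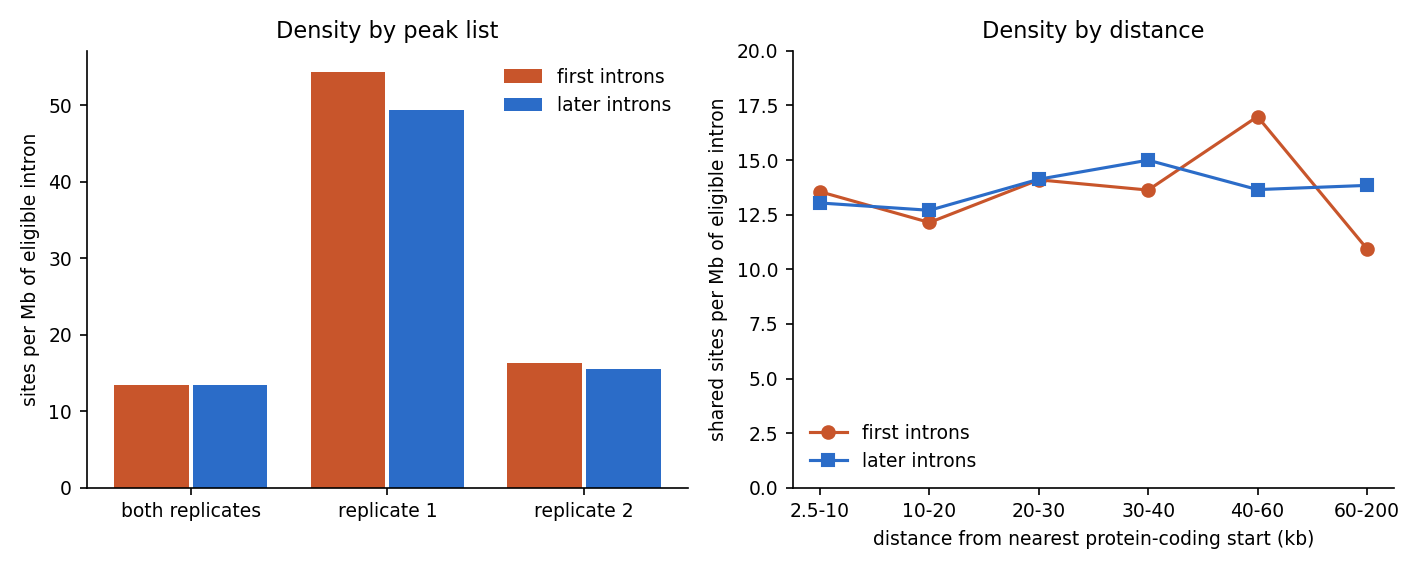
The left panel plots sites per Mb of eligible intron (vertical axis) in first and later introns for the sites of both replicates and for each replicate's list alone, and the right panel plots the shared sites by distance from the nearest protein-coding start in kb. The bars for shared sites are nearly equal at 13.4 and 13.5 per Mb, and the lines cross several times between 10.9 and 17.0 per Mb.

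The share of introns that held a site fell with intron number, while density stayed in a narrow range. Density was 13.2 sites per Mb in intron 1, 12.8 in intron 2, 13.5 in intron 3, 13.1 in intron 4, 13.7 in introns 5 to 9 and 13.4 in introns 10 or later. It was 14.4 in the last intron of genes with 2 or more introns and 15.2 in the only intron of genes with 1. Of introns with eligible sequence, 11.2% of first introns held a site, 5.84% of introns 2 and 2.15% of introns 10 or later. Median intron length went the same way, from 8547 bp for intron 1 to 2834 bp for intron 2 and 995 bp for introns 10 or later. First-intron sites lay a median of 6545 bp from the nearer end of their intron, and later-intron sites 1418 bp.

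Later-intron sites were higher than first-intron sites in replicate 1 but not in replicate 2. The median height of all 6180 sites was 1.43 in replicate 1, with quartiles of 0.850 and 2.45, and 0.947 in replicate 2, with quartiles of 0.710 and 1.30. First introns had medians of 1.25 and 0.947, and later introns 1.48 and 0.947. On a log2 scale the difference of first from later was -0.24 in replicate 1 and 0 in replicate 2, and with all intronic peaks of replicate 1, shared or not, it was -0.012. By intron length, later introns had the higher median in replicate 1 in 4 of 6 ranges, with 1.71 against 1.57 below 5 kb, 1.56 against 1.39 at 5 to 10 kb, 1.24 against 1.12 at 40 to 80 kb and 1.11 against 1.02 at 80 to 200 kb. In replicate 2 the order in these ranges was mixed, with later against first medians of 0.979 and 1.10, 0.968 and 0.963, 0.941 and 0.904, and 0.839 and 0.861. In introns of 10 to 20 kb the order turned, with 1.52 and 0.968 in first introns against 1.33 and 0.882 in later ones, and in introns of 20 to 40 kb the values were 1.36 and 0.995 against 1.25 and 0.893. The division by intron length was chosen after values had been seen.

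Sites of shorter genes had higher medians than 2 of the other 3 kinds of distal site. Intronic sites of genes of 200 kb or longer had median heights of 1.11 and 0.828 over 4519 sites, and intergenic distal sites 1.28 and 0.850 over 15199. Distal sites that touch an exon were at 1.42 and 1.01 over 1710, about level with the intronic sites in replicate 1 and above them in replicate 2. Peaks within 500 bp of a start reached 2.66 and 1.96. Density was 13.7 sites per Mb in introns of shorter genes, 11.6 in those of long genes and 11.1 between genes. Within the shorter genes, sites in genes under 20 kb had medians of 1.89 and 1.05, and those in genes of 100 to 200 kb 1.27 and 0.904. On either side of the 200 kb limit, sites in genes of 150 to 200 kb had medians of 1.24 and 0.871 and those in genes of 200 to 250 kb 1.14 and 0.871. Just outside the limit of 2500 bp from a start, 262 intronic sites at more than 2000 and up to 2500 bp had medians of 1.56 and 1.08, and just inside it 186 sites at more than 2500 and up to 3000 bp had 1.26 and 1.02.

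**Figure D2:**
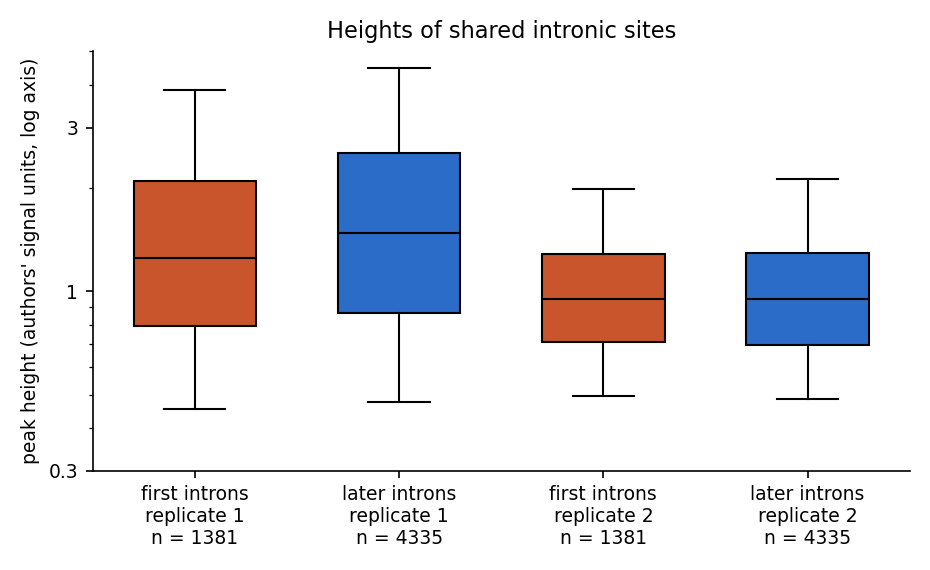
Peak height in the authors' signal units (vertical log axis) is drawn for shared sites of first and later introns in each replicate, with boxes from the lower to the upper quartile, a line at the median and whiskers from the 5th to the 95th percentile. Later introns have the higher median in replicate 1 (1.48 against 1.25), and the medians are equal in replicate 2 (0.947).

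Footprints were found in most sites, and among shared sites slightly more often in later introns. At least 1 footprint lay in 85.0% of sites in replicate 1 (84.1 to 85.9) and in 70.1% in replicate 2 (69.0 to 71.3). First introns had 83.1% and 67.3%, and later introns 85.5% and 70.8%, a gap of 2.43 percentage points in replicate 1 and 3.53 in replicate 2. With all intronic peaks of replicate 1, shared or not, the gap in replicate 1 was 0.171. Both replicates showed a footprint in 4032 sites (65.2%), against 63.8% of all autosomal shared peaks, and in 57.5% of the sites of long genes. The shorter, stricter peak lists of both replicates contained 2503 sites (40.5%), against 54.5% of all shared peaks. This share was 36.5% in first introns and 41.4% in later introns. Sites were narrow, with a median width of 148 bp, and had a median GC content of 54.3% in first introns and 53.2% in later introns.

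Of the 23 motifs searched, CTCF differed by the most percentage points between first and later introns. CTCF is the zinc finger protein that stops loop extrusion by cohesin and acts as an insulator. Its motif, searched as an exact degenerate match on both strands of the 200 bp around the site's middle, was in 771 sites (12.5%, interval 11.7 to 13.3), against 6.70% of all autosomal shared peaks in windows of the same length. Windows 500 bp to each side of the sites held it in 0.178%. First introns had it in 109 of 1381 sites (7.89%, 6.58 to 9.43) and later introns in 601 of 4335 (13.9%, 12.9 to 14.9). The gap of 5.97 percentage points was 3.59 with all intronic peaks of replicate 1, shared or not. Long-gene introns had 6.71% and intergenic sites 10.7%. The share was higher in later introns on 19 of 19 autosomes. For matches inside footprints of both replicates, widened by 10 bp to each side, it was 5.87% in first and 10.8% in later introns. Per Mb of eligible sequence, first introns held 1.06 sites with the motif and later introns 1.87, while sites without it were at 12.3 and 11.6 per Mb. This comparison and its divisions below were singled out after their values had been seen, and a match is a description of sequence, not a measured binding site.

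Intron length moved with this difference. In later introns shorter than 5 kb, 17.9% of sites held the CTCF motif, in those of 5 to 10 kb 14.8%, in those of 10 to 20 kb 11% and in those of 20 to 40 kb 9.08%. First introns of the same lengths had 12.5%, 13.2%, 10% and 6.68%. With later introns weighted to the lengths of the first introns that hold sites, the share was 9.29% against 7.87%, a gap of 1.43 percentage points in place of 6.01 for the same sites without the weighting. With later introns weighted to the distances of the first-intron sites from the start, the gap was 6.81 percentage points, in place of 5.97. By distance, the shares were 8.37% and 15.4% at 2.5 to 10 kb and 7.55% and 8.97% at 40 to 60 kb, and the intervals overlapped in 3 of 6 ranges, those beyond 30 kb. This weighting by distance was added after the values had been seen. In the 372 genes with sites in both kinds of intron, the shares were 5.94% and 14.9%. Each site was counted in 1 gene there. Sites in overlapping genes that could not be assigned to 1 intron carried no gene name. Where such sites occur in both kinds of intron, they are pooled as 1 gene in this count. The share also differed by intron number, from 7.87% in intron 1 to 10% in intron 2, 12.9% in intron 3 and 17.1% in introns 10 or later, and by gene length, from 18.5% in genes under 20 kb to 10.3% in genes of 100 to 200 kb. Intron number, intron length and gene length are tied to each other in these genes and cannot be told apart here.

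**Figure D3:**
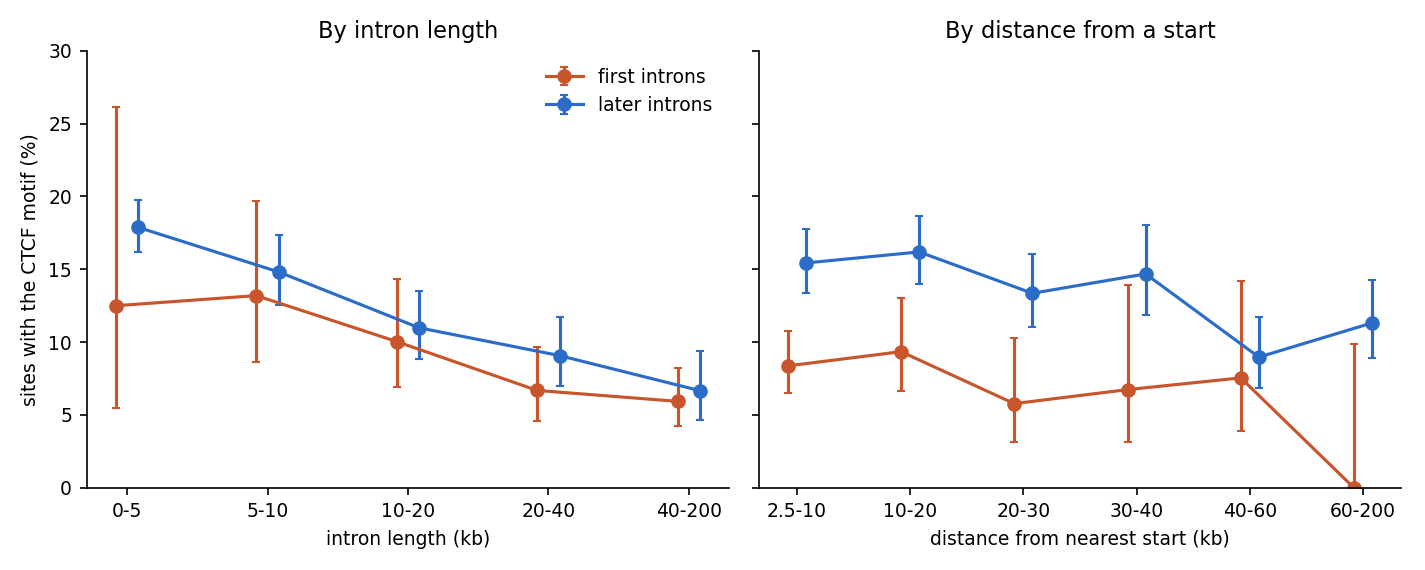
The share of sites with a CTCF motif match in the 200 bp window (vertical axis, percent) is drawn for first and later introns by intron length in kb (left) and by distance from the nearest protein-coding start in kb (right), with 95% Wilson intervals. Later introns are higher in every range of both panels, with overlapping intervals in all 5 ranges of intron length (11% against 10% at 10 to 20 kb) and in the 3 farthest of 6 ranges of distance (8.97% against 7.55% at 40 to 60 kb).

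Sites with the CTCF motif were the stronger ones. Their median heights were 2.79 and 1.22, against 1.28 and 0.914 for sites without it. Footprints lay in 98.3% of them in replicate 1 and in 87.8% in replicate 2, against 83.1% and 67.6%. Without them, first and later introns differed less in height in replicate 1, with medians of 1.18 and 1.30. In replicate 2 the medians without them were 0.925 and 0.914, where they were equal with them. The gap between replicates was wider at these sites, with a median log2 ratio of replicate 2 to replicate 1 of -1.16, against -0.50 at sites without the motif.

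The short motifs of NeuroD-type, TCF-type and NFI factors were matched in the most sites, and often in flanking windows too. Their shares were 1.84, 1.93 and 1.96 times those of flanking windows, against 70.1 times for CTCF and 7.83 times for the RFX X-box. The E-box CAGATG, bound by NeuroD-type factors of excitatory neurons, was in 30.2% of sites, against 16.4% of flanking windows and 20.4% of all autosomal shared peaks. The E-box CAGCTG, read by TCF-type factors, was in 21.0%, against 10.9% of flanks and 17.1% of shared peaks, and the short NFI motif TTGGCA in 20%, against 10.2% and 14.8%. First introns had this NFI motif in 23.0% of sites and later introns in 19.1%, and the rarer NFI palindrome, which contains TTGGC, in 0.941% and 0.531%. The AP-1 motif TGANTCA was in 8.24% of sites, against 5.80% of flanks and 5.69% of shared peaks, with 8.69% in first and 7.98% in later introns. Introns of long genes held these 4 short motifs at higher shares, with 33.3% for CAGATG, 22.4% for CAGCTG, 23.5% for TTGGCA and 8.48% for AP-1, so the shares are not particular to shorter genes.

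Motifs typical of promoters were less frequent in these sites than in shared peaks at large. The SP/KLF motif GGGCGG was in 9.14% of sites and in 27.8% of all shared peaks, against 4.22% of flanks. The EGR motif GTGGGCG, bound by activity-induced zinc finger factors, was in 3.40% and 6.35%, and the ETS motif CCGGAAG in 1.26% and 5.49%. Other distal sites were low as well, with 7.39% for SP/KLF, 3.19% for EGR and 1.24% for ETS in introns of long genes, and 11.1%, 3.27% and 1.91% between genes. First introns had more of each than later introns, with 11.1% against 8.49% for SP/KLF, 4.34% against 3.02% for EGR and 1.81% against 1.06% for ETS. The intervals were apart for SP/KLF (9.53 to 12.8 against 7.70 to 9.36) and overlapped for EGR and ETS. For matches inside footprints of both replicates, SP/KLF was at 2.10% in first and 2.05% in later introns, and EGR at 1.01% and 0.854%. ETS was at 0.0724% and 0.161%, from 1 and 7 sites. The homeobox motif TAATTA was less frequent in sites than in their flanks, at 2.91% against 4.72%, as was MEF2 at 1.65% against 3.11%. Other motifs rich in A and T were mixed. The FOX motif TGTTTAC was at 2.28% against 2.75% and the SOX motif ACAATGG at 1.86% against 2.28%. The octamer ATGCAAAT was at 1.05% against 1.01% and the SRF motif at 0.825% in both. The RFX X-box was in 0.761% of sites against 0.0971% of flanks, and the cyclic AMP response element TGACGTCA in 0.453% against 0.113%.

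**Figure D4:**
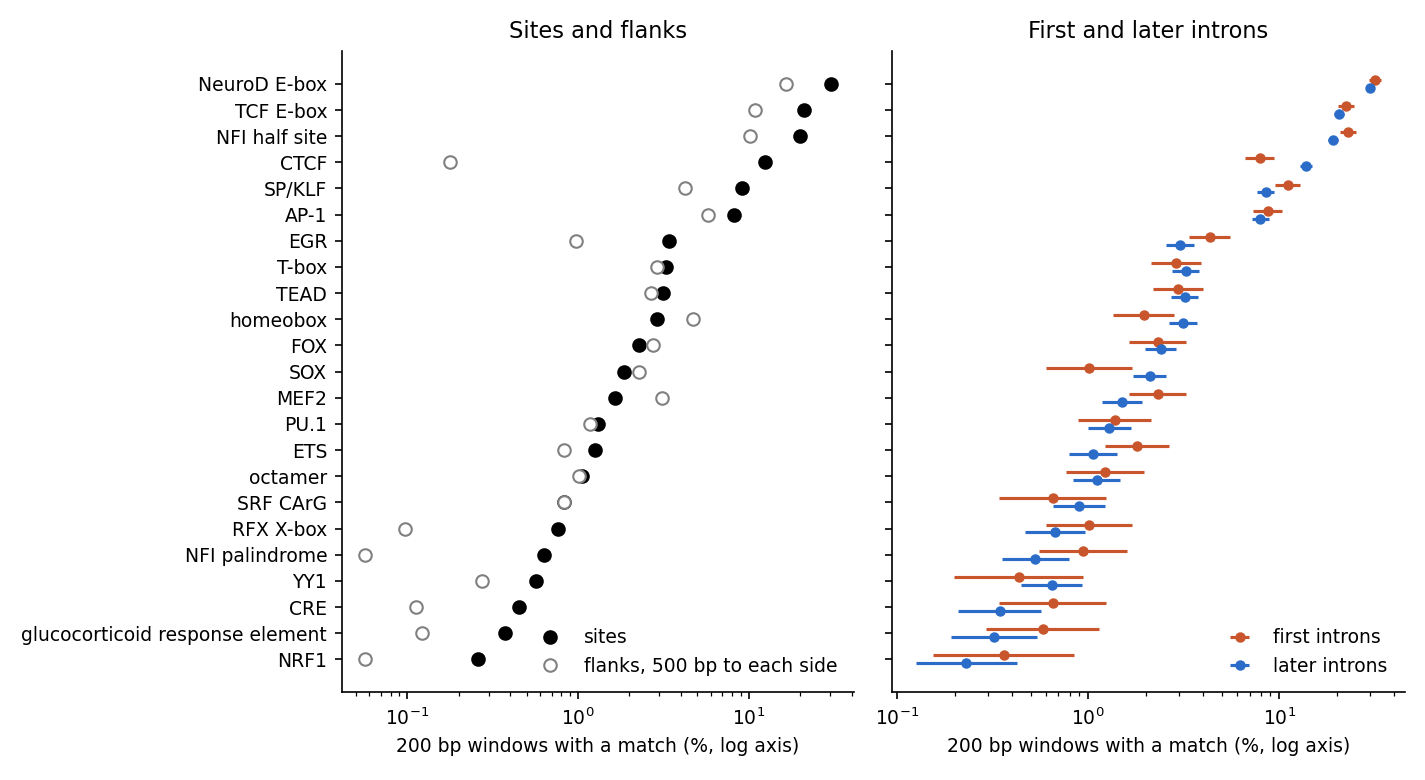
Shares of 200 bp windows with a match to each of 23 motifs (horizontal log axis, percent) are drawn for all sites and their flanks on the left, and for first and later introns with 95% Wilson intervals on the right. CTCF has the widest gap between sites and flanks (12.5% against 0.178%), and later introns stand to the right of first introns for it (13.9% against 7.89%).

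The sites fell in 3657 of 19854 autosomal protein-coding genes shorter than 200 kb (18.4%), or 23.3% of the 15708 such genes with any eligible intron sequence. A single site was found in 2238 of these host genes, 2 to 4 in 1286 and 5 or more in 133. Sites lay only in first introns in 628 genes, only in later introns in 2444 and in both in 374. Neighbouring sites were close together in part, with 14.8% within 1 kb of another site and 26.2% within 5 kb. Genes with an open promoter held a site in 27.3% of 9946 cases and those without in 16.4% of 5762, and per Mb of eligible sequence they held 14.0 and 12.6 sites. Divided by eligible sequence, the shares were 2.01% and 0.816% below 2 kb, 5.55% and 3.14% at 2 to 5 kb, and 9.79% and 9.32% at 5 to 10 kb. They were 15.6% and 16.3% at 10 to 20 kb and 28.5% and 26.6% at 20 to 40 kb. At 40 to 80 kb they were 46.6% (44.2 to 49.0) and 38.4% (34.4 to 42.5), and at 80 to 200 kb 69.4% and 66.2%. Genes with an open promoter were thus ahead in every range except 10 to 20 kb, with intervals apart only at 40 to 80 kb.

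Nfic had the most sites of any gene. It encodes nuclear factor I/C, one of the NFI factors whose motif is named above, and it carried 17 sites in 37.4 kb of eligible sequence, or 45.5 per 100 kb. Only 2 were in its first intron and 5 in later ones, and the other 10 lay outside the introns of its representative transcript. Its highest site reached 4.05 in replicate 1 and 2.25 in replicate 2, and a second reached 4.03 and 1.51, while 11 of the 17 were at 0.56 or below in replicate 1. Most of its sites were therefore below the lower quartile of all sites in replicate 1, which is 0.850.

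The other hosts with many sites had varied functions. Ephb2, a receptor tyrosine kinase of dendritic spines, had 11 sites, 3 of them in its first intron, and its highest reached 5.17 and 2.86. Nrxn2, a presynaptic adhesion protein, had 10, from 1.03 to 4.34 in replicate 1 and from 1.09 to 2.25 in replicate 2. Crtac1, a secreted cartilage acidic protein, had 10, all in later introns, and the highest of them stood apart at 5.89 and 2.56. Trak1, an adaptor for mitochondrial transport along axons, and Dab2ip, a Ras GTPase-activating protein, had 10 each, as did Fam13c and Mvb12b, and Osbpl3 had 9. None of these genes had more than 3 sites in its first intron.

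Sfi1, a centrosome gene, was the exception in its replicate values. All 11 of its sites were higher in replicate 2 than in replicate 1, against 28.5% of all autosomal shared peaks and 20.9% of the sites described here. They ranged from 0.401 to 1.86 in replicate 1 and from 0.979 to 3.51 in replicate 2. The middle 36 bases of 1 of them occur 165 times in the reference genome, those of 2 others 2 times and those of the other 8 once. The part of repeated sequence in these heights was not tested.

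Nfic and Sfi1 were also among the densest hosts. Among genes with at least 5 sites, Llgl1, a cell polarity gene, had 65.2 sites per 100 kb from 5 sites in 7.67 kb, ahead of Nfic at 45.5. Bop1, a ribosome biogenesis factor, had 32.7, Sfi1 22.2, Upb1, an enzyme of pyrimidine breakdown, 17.8, and Zfp664 14.8. All but 1 of the 5 Llgl1 sites were at 0.69 or below in replicate 1. Ncs1, the neuronal calcium sensor 1, had 13.8 per 100 kb and was the densest host with most sites in its first intron, 5 of 6. These 5 stood at 1.54 to 2.28 in replicate 1 and at 1.20 to 1.67 in replicate 2. Kcnk12, a potassium channel subunit, had 6 first-intron sites, all of them at 0.594 or below in replicate 1 and 0.645 or below in replicate 2. Aknad1 and Galm followed with 13.2 and 12.4 per 100 kb, all in later introns.

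Genes that mark neurons held several of the higher sites. Excitatory neuron genes had sites in 9 of 16 measured genes and pan-neuronal genes in 6 of 12, against 18.4% of all genes. Camk2a, the alpha subunit of the calcium/calmodulin-dependent kinase of excitatory synapses, had 5 sites. The 3 in its first intron stood at 2.34 and 1.53, at 3.35 and 1.84 and at 3.02 and 2.56, and the 2 in later introns at 1.81 and 1.24 and at 4.47 and 2.15. All of these lie above the median of the sites in both replicates. Camk2b, the beta subunit, also had 5, with 2 in the first intron, from 2.08 to 2.60 in replicate 1. Slc17a7, the vesicular glutamate transporter of hippocampal pyramidal cells, had 2 first-intron sites at 2.15 and 1.55 and at 1.44 and 1.5. Bcl11b, a zinc finger regulator, had a first-intron site at 4.21 and 2.23 and a later one at 0.80 and 1.11. Dnm1, the neuronal dynamin, had 3 first-intron sites, each with the larger value in replicate 2, as in 20.9% of all sites described here. Gap43, a growth cone protein, had 4 sites in intron 2.

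Postsynaptic and field-specific genes also held sites, in shares that all lay above the 18.4% of all genes. By density, given below, glutamate receptor and dentate genes lay under genes at large. Glutamate receptor and scaffold genes had sites in 3 of 10, all in later introns, while 11 of the 22 listed genes are 200 kb or longer and were not measured here. Grik5, a kainate receptor subunit, had 3 sites, the highest at 4.37 and 1.52, and Grin1, the obligate NMDA receptor subunit, had 1 at 3.07 and 1.57. CA1 pyramidal genes had sites in 4 of 9, CA2 and CA3 genes in 3 of 8 and dentate granule genes in 3 of 9. Fibcd1, a CA1 marker, had 3 sites in intron 4, at 2.66 and 1.89, at 0.67 and 1.89 and at 3.83 and 1.56. The 3 dentate sites, in Dsp, Lct and Trpc6, were all in first introns and at 0.791 or below in replicate 1. Interneuron genes had sites in 5 of 17, with Nos1, the neuronal nitric oxide synthase, reaching 5.18 and 1.75 and Gad1, a GABA-synthesizing enzyme, 4.86 and 1.38.

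Glial and vascular genes also held intronic sites, with heights that ranged widely, and their counts are to be read against the 18.4% of all genes. Mbp, the myelin basic protein, had 7 sites, of which 3 were in later introns and 4 outside the introns of the representative transcript, the highest in replicate 1 at 4.56 and 1.58. Opalin, a myelin membrane protein, had 1 at 6.62 and 2.43, while Mog, a myelin surface protein, had 1 at 0.663 and 0.559. Oligodendrocyte genes as a list had sites in 5 of 16. Aldh1l1, an astrocyte enzyme of folate metabolism, had 6, the highest at 5.70 and 2.74, and 2 other astrocyte genes of 14 had 1 each. Microglial genes had sites in 5 of 16. Spi1, which encodes PU.1, the master regulator of microglia, reached 5.65 and 1.62, and the second Cx3cr1 site stood at 2.18 and 1.02. Vascular genes had sites in 7 of 18, among them 4 in Flt1, a VEGF receptor of endothelium, and a Pdgfrb site, a pericyte receptor gene, at 6.01 and 2.71, while Rgs5, another pericyte gene, had 1 at 0.626 and 0.667. Cspg4, the NG2 proteoglycan, had 3 and was the only 1 of 8 measured oligodendrocyte precursor genes with a site.

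Genes of other tissues had sites in smaller shares. Liver genes had them in 2 of 18, muscle genes in 2 of 15 and blood and lymphoid genes in 1 of 14. The single blood gene was Pax5, a B cell regulator, with 6 sites in later introns up to 2.94 and 1.23. Hnf4a, a liver and gut regulator, had 3, the highest at 4.75 and 1.88, although no promoter of the liver list was open. Housekeeping genes had sites in 0 of 13, with an open promoter in 13 of 13 and only 70.1 kb of eligible sequence in all. Immediate-early genes had sites in 2 of 19, Junb at 1.99 and 1.33 and Dusp1 at 0.81 and 0.57, on 144 kb. Eligible sequence differed widely between lists, so density per 100 kb is given as well.

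By density, regulators and oligodendrocyte genes led the lists. The list of NFI, basic helix-loop-helix and zinc finger regulators had 4.89 sites per 100 kb, with 17 of its 28 sites in Nfic, and the oligodendrocyte list 3.41, with 7 of 12 in Mbp. Pan-neuronal genes had 2.67 and excitatory genes 2.53, spread over more genes, against 1.37 for all shorter genes. Liver genes had 1.49, muscle genes 1.74 and blood genes 2.06, so on this scale they were not below genes at large. Dentate genes were the lowest of the lists with sites, at 1.06. Bcl6, a transcriptional repressor, had 3 first-intron sites up to 4.77 and 2.22, and the cytoskeletal genes Map4 and Mapt had 4 each, 3 of those of Mapt in its first intron.

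**Figure D5:**
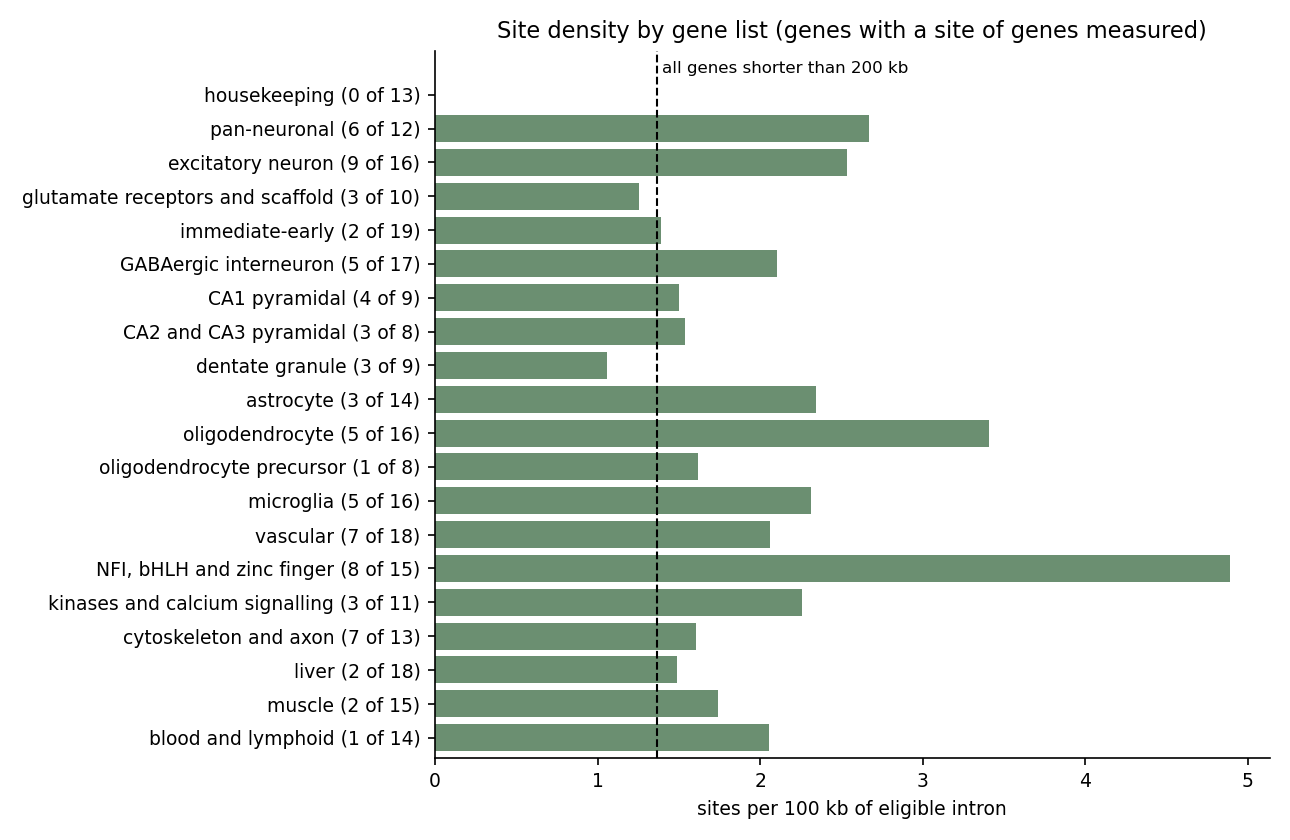
Sites per 100 kb of eligible intron sequence (horizontal axis) are drawn for 20 gene lists, with genes that hold a site and genes measured in brackets and a dashed line at the value for all shorter genes. The regulator list stands highest at 4.89, largely through Nfic, and housekeeping genes have no site on 70.1 kb.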

How the data were processed

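DNase-seq peaks, footprints and false discovery rates were deposited for each of the 2 samples separately on mm10, per the labels. The sources used here name no aligner, caller or threshold. Heights were read as the authors' signal values from the deposited peak lists, the longer list of each sample being the main one. The deposited false discovery rate was treated as a q-value. The lowest q-value found inside a site reached at most 0.0498 in replicate 1 and 0.0499 in replicate 2. Footprints were used by position only, and for motif matches they were widened by 10 bp to each side. The height of a site in a replicate is that of the highest peak over it.

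Starts, exons and introns came from protein-coding transcripts of GENCODE M21, with introns numbered in the APPRIS principal transcript. Sequences came from the RefSeq copy of GRCm38.p6, and peaks ended within its length on all 19 autosomes. Eligible bases, motif matches on both strands and copies of 24-base runs were counted with Python 3.11.15, numpy 2.4.6 and pandas 2.3.3. All copy counts cover every sequence record of this reference, not only its chromosomes. The motif step was tested with planted matches. The density step was tested with simulated single-base sites drawn from the eligible sequence of part of the autosomes. That checks the counting only and cannot show an effect of the width of real sites. Depth in reads was unknown, so the numbers of peaks and footprints stand in for it.

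The sites, gene lists and motifs were chosen with earlier results of these data known. Named genes are the 10 hosts with most sites, the 10 densest with at least 5, the hosts of the 5 highest sites of each intron class, and from each list the members with most sites. Some sites that this rule names are not reported here. Other genes named from the lists were chosen after their values were seen. Alternatives covered peak lists, overlap, transcripts, distance, gene length, annotation, motif windows and leaving out a replicate.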

Additional observations from a re-analysis of the deposited data

How the results depend on the processing

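Alternatives changed the number of sites and the size of the differences, and no difference that was called changed its sign. With the shorter peak lists there were 2540 sites in 1941 genes, and with genes shorter than 100 kb 3850 sites. With 1 replicate left out, the range was 7192 to 22910 sites in 3910 to 7175 genes. The ratio of first to later density was 0.859 with the shorter lists, 0.912 with 50% reciprocal overlap, 1.05 with genes shorter than 100 kb, and 1.05 to 1.10 with 1 replicate left out. Without sites that hold the CTCF motif, an alternative added after seeing the data, it was 1.06. At matched distance the ratio was 0.847 with the shorter lists, 0.926 with reciprocal overlap, 0.958 with lists of equal length, 1.07 with genes shorter than 100 kb, 1.09 without the CTCF motif, and 1.08 to 1.12 with 1 replicate left out. It therefore lay on either side of 1 depending on the lists.

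The log2 difference in height in replicate 1 was -0.012 without replicate 2. The footprint gap in replicate 1 was 3.37 percentage points with the shorter lists, 3.36 with the longest transcript, 3.22 with genes shorter than 100 kb and 0.171 without replicate 2. In replicate 2 it was 4.67 with the shorter lists, 4.88 with genes shorter than 100 kb, 2.62 without the CTCF motif and 4.46 without replicate 1. The GC gap, first minus later, was 0.677 percentage points with the shorter lists, 1.32 with reciprocal overlap, 0.789 with the first intron of any transcript, 0.808 with genes shorter than 100 kb, and 0.873 to 1.07 with 1 replicate left out. The CTCF gap was 8.75 percentage points with the shorter lists, 7.14 with lists of equal length, and 3.59 to 5.24 with 1 replicate left out, and 1.43 with later introns weighted to first-intron lengths, added after seeing the data. Where starts and exons of all gene types were used, 4916 sites remained and the density ratio was 0.994. The causes were not tested. No paired analysis was possible because there is 1 group.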

Other observations

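Most intronic sites of replicate 1 were not found in replicate 2. Of 22910 sites in the same gene regions in the list of replicate 1, 26.3% overlapped a peak of replicate 2, with 24.2% in first introns and 26.6% in later introns. The share was 4.11% in the lowest of 4 groups of equal size by height and 65.6% in the highest. Of 7192 sites in the list of replicate 2, 82.1% overlapped a peak of replicate 1, with 78.3% in first and 83.2% in later introns, from 54.6% in the lowest of such groups to 98.7% in the highest. The sites described above are therefore mostly the higher ones of replicate 1.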
